A study of Saccharomyces cerevisiae with 6 samples.

Results

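TYE7, GCR1 and GCR2 encode activators of the glycolytic enzyme genes of budding yeast. They were followed here in meiotic cells in which the unfolded protein response factor Hac1 had been switched on. The 3 genes were taken by symbol from 6679 open reading frames (ORFs), and the set was chosen by the TYE7 values with inducer and vehicle: TYE7 rose, so this rise is described without a test. GCR1 and GCR2 were added as its partners, and their values in the same contrast are given in the same way.

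Glycolysis converts sugar to pyruvate, and in yeast its enzymes are among the most abundant proteins of growing cells. Gcr1 binds short CT-rich elements in the promoters of these enzyme genes, usually beside a site for Rap1, and Gcr2 binds Gcr1 and supplies an activation function. Tye7 is a basic helix-loop-helix (bHLH) protein that binds E-boxes in many of the same promoters, and loss of Tye7 is tolerated while loss of Gcr1 or Gcr2 severely limits growth on glucose. Sporulating cells are supplied with acetate rather than glucose, and they run the pathway largely in reverse, as gluconeogenesis.

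The samples were SK1 cells, a laboratory strain that sporulates rapidly, sampled 6, 6.5 and 7 h after transfer to sporulation medium. One arm had received an inducer labelled bEST and the other its ethanol vehicle, both at 5 h, so the samples lie 1, 1.5 and 2 h after the addition. There was 1 poly(A)-selected library for each treatment and hour, hence 3 inducer and 3 vehicle libraries, none of which has a replicate at its own hour. The series describes the inducer arm as driving spliced HAC1 mRNA from outside its own control. All 6 libraries carry the genotype label WT, and the construct is not named. A control with the inducer but no driven HAC1 was not analysed here, so what HAC1 does and what the inducer does cannot be told apart. The labels do not say whether separate cultures were used, so p-values cover the spread between libraries, which may be technical. In the comparison of inducer with vehicle, that spread also includes any change of the difference from hour to hour. The samples are whole cultures, in which a change in the share of cells and a change in RNA per cell cannot be told apart.

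The values are of the RPKM type, that is reads scaled by ORF length and library size, and recovered depth was 6.0 to 21.7 megareads per library. They are 2.89 to 2.93 times what plain reads per kilobase and per megaread of these recovered reads would give. The reason is not known here, and since the factor is nearly equal in all libraries it hardly touches ratios between them. RPKM below means the values as deposited. HAC1 averaged 43683 ± 12967 RPKM with inducer and 118 ± 16.9 RPKM with vehicle (SD, n = 3 hours each), and KAR2, the Hsp70 of the endoplasmic reticulum (ER) and a classical Hac1 target, averaged 16951 ± 8610 and 942 ± 134 RPKM. All 6 meiosis markers, IME1, IME2, ZIP1, NDT80, CLB3 and SPS1, were detected in every library, with a summed level of 16743 to 19891 RPKM with inducer and 20445 to 24348 RPKM with vehicle. Of these, IME1, the master regulator of entry into meiosis, fell by 1.04 ± 0.20 (SE) on the log2 scale (adjusted p = 0.0144 by limma). IME2, ZIP1, NDT80, CLB3 and SPS1 were at -0.612, -0.481, -0.268, -0.161 and -0.083 and did not pass. The median of the 6 markers was -0.374, against -0.084 over all ORFs tested. Without the 6 h pair 3 of the 6 passed as lower. Of 4 markers of mitotic daughter cells, none was at 0. Their sum was 185 to 464 RPKM with inducer and 134 to 166 RPKM with vehicle. DSE1, one of these 4, rose by 1.99 ± 0.36 (adjusted p = 0.0128 by limma), and the higher sum rests on it. DSE2, SCW11 and CTS1 were at -0.235, -0.138 and 0.091 and did not pass. Neither IME1 nor DSE1 passed without the 6.5 h pair or without the 7 h pair (adjusted p = 0.135 and 0.0952 for IME1, 0.0630 and 0.0992 for DSE1). The part of these shifts in the results below was not tested.

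TYE7 (YOR344C) was several-fold more abundant with inducer at every hour. It stood at 444, 646 and 572 RPKM in the inducer libraries at 6, 6.5 and 7 h, against 102, 110 and 99.3 RPKM in the vehicle libraries at the same hours. The treatments did not overlap: the lowest inducer library was 4.05 times the highest vehicle library. Changes are differences in log2(RPKM + 1), fitted over the 3 hour-matched pairs of libraries, and for TYE7 the difference was 2.39 ± 0.14 (SE, 3 pairs), or 5.24-fold. By hour it was 2.11, 2.55 and 2.51, the first of these 1 h after the addition. No library from before the addition was analysed here, so when the difference arose was not tested. All 3 genes were among the 6025 ORFs with a mean of at least 5 RPKM, and of these TYE7 ranked 52nd from the highest increase over the 3 pairs. Its rank was 34 at 6 h, 69 at 6.5 h and 92 at 7 h, from 1 pair each.

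GCR1 (YPL075W), which encodes the DNA-binding partner of the Gcr pair, averaged 85.2 ± 12.5 RPKM with inducer and 89.4 ± 3.69 RPKM with vehicle (SD, n = 3 hours each). Its levels were 92.0, 92.8 and 70.7 RPKM with inducer at 6, 6.5 and 7 h, and 93.6, 86.7 and 87.9 RPKM with vehicle. The treatments overlapped, and the lowest value of the 6 was the inducer library at 7 h. The fitted difference was -0.08 ± 0.13 (SE, 3 pairs), with -0.03, 0.10 and -0.31 at the 3 hours. Its sign rests on the 7 h pair: without that pair the difference was 0.04.

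GCR2 (YNL199C), which encodes the co-activator, lay slightly above vehicle with inducer. Its levels were 104, 120 and 125 RPKM with inducer at 6, 6.5 and 7 h, and 94.9, 91.9 and 91.3 RPKM with vehicle. The treatments did not overlap, but the lowest inducer library exceeded the highest vehicle library by a factor of only 1.10. The fitted difference was 0.32 ± 0.13 (SE, 3 pairs), or 1.25-fold, with 0.13, 0.38 and 0.45 at the 3 hours. Thus 2 of the 3 genes, TYE7 and GCR2, were higher in every inducer library than in any vehicle library. Of all 6025 ORFs 17.3% showed such a separation upward and 14.1% downward, and since this contrast chose the genes, nothing is read from the count.

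**Figure D1:**
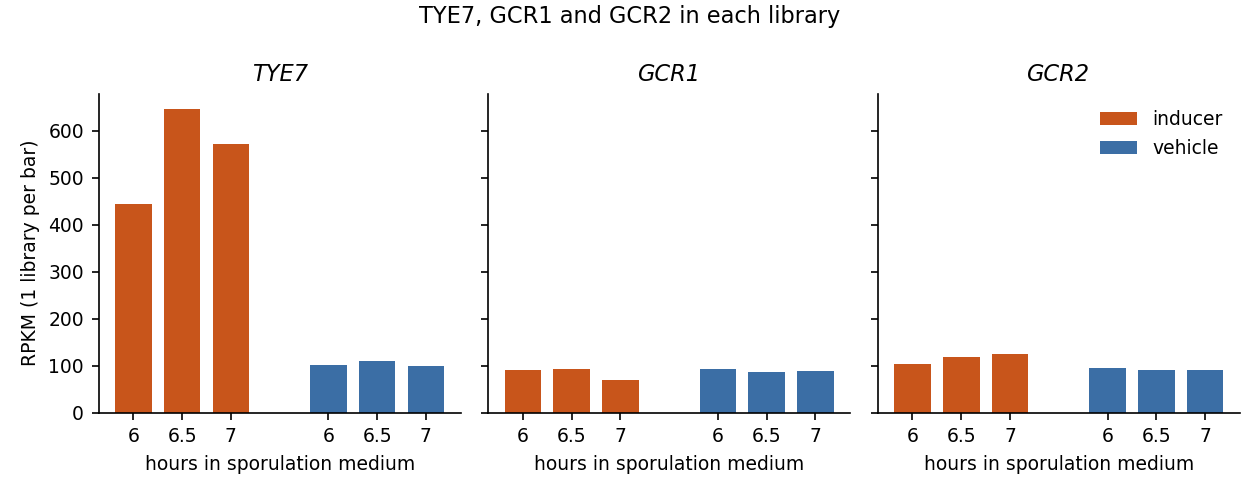
Level in RPKM (vertical axis, from 0) of TYE7, GCR1 and GCR2 in each of the 6 libraries, by hours in sporulation medium (horizontal axis), with inducer in orange and vehicle in blue and 1 library per bar. TYE7 stands at 444 to 646 RPKM with inducer and 99.3 to 110 RPKM with vehicle, while GCR1 and GCR2 stay between 70.7 and 125 RPKM in all libraries.

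The 3 genes lay close together in level per length in vehicle and apart with inducer. In vehicle the order was TYE7, at 104 ± 5.35 RPKM, then GCR2, at 92.7 ± 1.92, then GCR1, at 89.4 ± 3.69 (SD, n = 3 hours each), and the libraries' ranges of GCR2 and GCR1 overlapped. With inducer the order was the same, at 554 ± 102, 116 ± 10.8 and 85.2 ± 12.5 RPKM, and no ranges overlapped. TYE7 was 4.83, 6.96 and 8.09 times GCR1 in the inducer libraries at 6, 6.5 and 7 h, against 1.09, 1.27 and 1.13 times GCR1 in the vehicle libraries. The ratio of TYE7 to GCR2 was 4.27, 5.41 and 4.58 with inducer and 1.08, 1.19 and 1.09 with vehicle. TYE7 made up 69.4 to 75.3% of the summed RPKM of the 3 genes with inducer and 35.2 to 38.1% with vehicle. The ratio of GCR2 to GCR1 also differed, at 1.13, 1.29 and 1.77 with inducer and 1.01, 1.06 and 1.04 with vehicle, and the 7 h value combines the highest GCR2 with the lowest GCR1. In rank among tested ORFs within a library, TYE7 lay above 77.6 to 84.5% of them with inducer and above 37.2 to 41.3% with vehicle. GCR1 lay above 29.7 to 38.2% with inducer and 34.7 to 37.5% with vehicle, and GCR2 above 38.5 to 45.9% and 35.2 to 38.6%.

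These levels rest on 186 reads or more in every library. The RPKM values of all 3 genes came out as whole numbers of reads in all 6 libraries, within 0.02 of a read, when the coding lengths of TYE7, GCR1 and GCR2, 876, 2358 and 1605 bp, were each shortened by 60 bp. TYE7 had 1175, 3916 and 1577 reads with inducer at 6, 6.5 and 7 h, and 379, 186 and 326 with vehicle. GCR1 had 549 to 1584 reads with inducer and 414 to 976 with vehicle, and GCR2 had 521 to 1371 and 295 to 665. The smallest of these numbers belongs to TYE7 in the shallowest library, vehicle at 6.5 h. For GCR1 the length that fitted, 2298 bp, is that of its 2 coding exons joined, without the intron between them, less the same 60 bp.

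The change over the sampled hours is a contrast that did not choose these genes, and none of the 3 passed in it. With treatment held in the fit, TYE7 changed by 0.16 ± 0.18 per hour (log2, SE; adjusted p = 0.635 by limma), GCR1 by -0.23 ± 0.15 (adjusted p = 0.388) and GCR2 by 0.10 ± 0.14 (adjusted p = 0.700). Few genes passed at all in this contrast: 15 of 6025 rose, which is 0.249%, and 25 fell, which is 0.415%. The median over all tested ORFs was -0.15 per hour. The sign for TYE7 rests on the 6 h pair, which holds its lowest level with inducer, and without that pair the slope was -0.32.

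Whether the slope differed between treatments was tested for GCR1 and GCR2. The slope with inducer minus the slope with vehicle was -0.28 ± 0.29 per hour for GCR1 (adjusted p = 0.768 by limma) and 0.32 ± 0.27 for GCR2 (adjusted p = 0.701). For TYE7 this difference was 0.41 ± 0.34 per hour, given as a description because it draws on the differences that chose the gene. By limma 0 of 6025 ORFs passed this test in either direction, with 714 at an unadjusted p under 0.05.

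Other transcription factors of the same families, and the general factors of glycolytic promoters, held 1 call among them. Of 7 other bHLH genes 1 rose and 0 fell, and their median was -0.25. Over all tested ORFs 10.0% rose and 8.35% fell, with a median of -0.08. The gene that rose was INO2, an activator of phospholipid synthesis genes, with 101, 107 and 160 RPKM with inducer at 6, 6.5 and 7 h and 64.2, 68.1 and 60.8 RPKM with vehicle. Its change was 0.89 ± 0.17 (SE, 3 pairs; adjusted p = 0.0154 by limma), with all 3 inducer libraries above all 3 vehicle libraries, and it did not pass without the 7 h pair (adjusted p = 0.0774). Its dimer partner INO4 was at 0.14 ± 0.14 (adjusted p = 0.509). PHO4, the activator of phosphate genes, and RTG1, of the mitochondrial retrograde pathway, were at -0.50 ± 0.16 (adjusted p = 0.0678) and -0.51 ± 0.17 (adjusted p = 0.0728). RTG3, the partner of Rtg1, CBF1, a centromere and methionine gene factor, and HMS1 were at -0.25, -0.18 and -0.32 and did not pass.

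HOT1 and MSN1 share the type of DNA-binding domain found in Gcr1, and neither passed. HOT1, which acts in the response to high osmolarity, was at -0.38 ± 0.13 (adjusted p = 0.0870 by limma), with 157 to 204 RPKM with inducer and 221 to 231 RPKM with vehicle. MSN1 was at 0.16 ± 0.11 (adjusted p = 0.369). Of the general factors, RAP1, whose product binds next to Gcr1, was at -0.30 ± 0.13 (adjusted p = 0.148), with 134 to 169 RPKM with inducer and 171 to 190 RPKM with vehicle. ABF1 and REB1, which bind many promoters including glycolytic ones, were at 0.13 ± 0.15 (adjusted p = 0.590) and -0.15 ± 0.12 (adjusted p = 0.428).

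**Figure D2:**
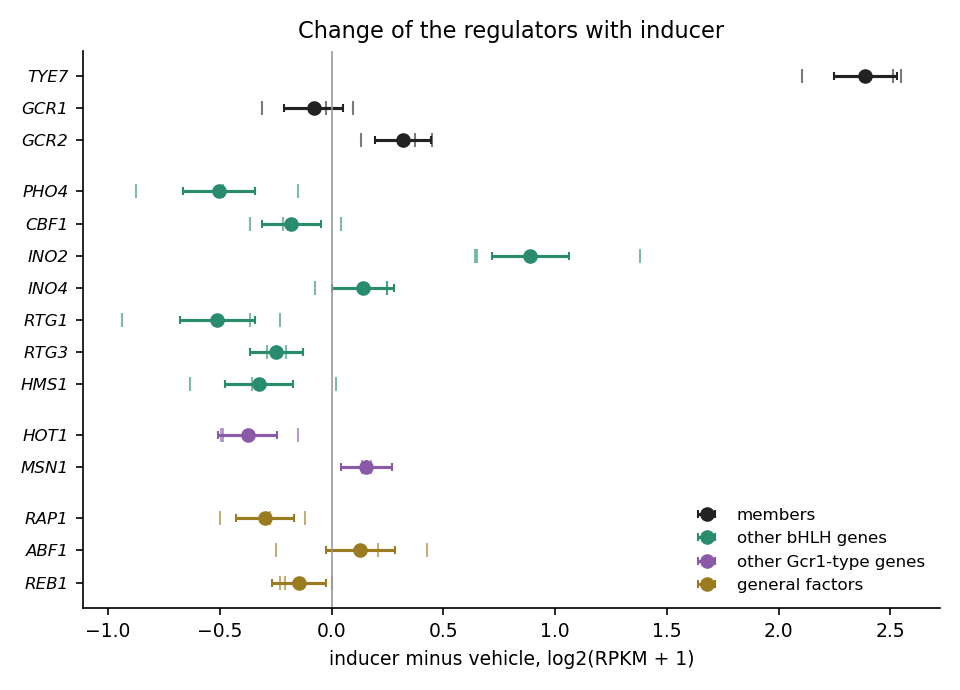
Inducer minus vehicle in log2(RPKM + 1) (horizontal axis) for the 3 activators, 7 other bHLH genes, HOT1 and MSN1, and 3 general factors (rows). Points are the fit over 3 pairs, bars its SE, and ticks the difference at each of the 3 hours. TYE7 lies at 2.39, and all other genes shown lie between -0.51 and 0.89.

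Many genes of glycolytic enzymes are known targets of Tye7, Gcr1 and Gcr2, and 14 of these enzyme genes were taken as a list. Of these 8 rose with inducer, 0 fell and 6 did not pass, with a median change of 1.11. The same shares over all tested ORFs were the 10.0% higher and 8.35% lower given above. The list was chosen with earlier results of these data known, so its count is a description. In pathway order the genes that rose were FBA1, for aldolase, TPI1, for triose phosphate isomerase, TDH2, for a glyceraldehyde-3-phosphate dehydrogenase, PGK1, for phosphoglycerate kinase, GPM1, for phosphoglycerate mutase, ENO1 and ENO2, for enolase, and CDC19, for the main pyruvate kinase. The largest change was that of ENO2, at 561, 1639 and 1899 RPKM with inducer at 6, 6.5 and 7 h, and 198, 381 and 215 RPKM with vehicle. It rose by 2.25 ± 0.28 (SE, 3 pairs; adjusted p = 0.00359 by limma), or 4.74-fold, without overlap between treatments. TPI1 stood at 3631, 9232 and 7610 RPKM with inducer and 1528, 2107 and 1342 RPKM with vehicle, and rose by 1.96 ± 0.24 (adjusted p = 0.00331), also without overlap.

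TDH2 and PGK1 rose by 1.94 ± 0.27 and 1.87 ± 0.29 (adjusted p = 0.00537 and 0.00740 by limma), GPM1, ENO1 and CDC19 by 1.51, 1.44 and 1.51, and FBA1 by 0.78 ± 0.21 (adjusted p = 0.0416). For 5 of these 8 genes the inducer and vehicle libraries overlapped, with the vehicle library at 6.5 h above the inducer library at 6 h. The enzymes of the upper steps did not pass: PGI1, for phosphoglucose isomerase, was at 0.32 ± 0.21, and PFK1 and PFK2, the subunits of phosphofructokinase, at -0.03 ± 0.13 and -0.15 ± 0.15. TDH1 and TDH3, paralogs of TDH2, were at -0.20 ± 0.12 and 0.02 ± 0.18. PYK2, the minor pyruvate kinase, was at 0.74 ± 0.24 (adjusted p = 0.0678). TDH1, TDH2 and TDH3 are similar in sequence, though not equally so, and ENO1 and ENO2 are similar as well. The sources used here do not say how reads shared by such copies were assigned, so the split within each family is uncertain. The count of 8 was 9 without the 6 h pair, 4 without the 6.5 h pair and 1 without the 7 h pair, and 3 when the hours were left out of the fit. Of the 8 only ENO2 passed in all of these fits, while the list's median stayed between 0.84 and 1.41.

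**Figure D3:**
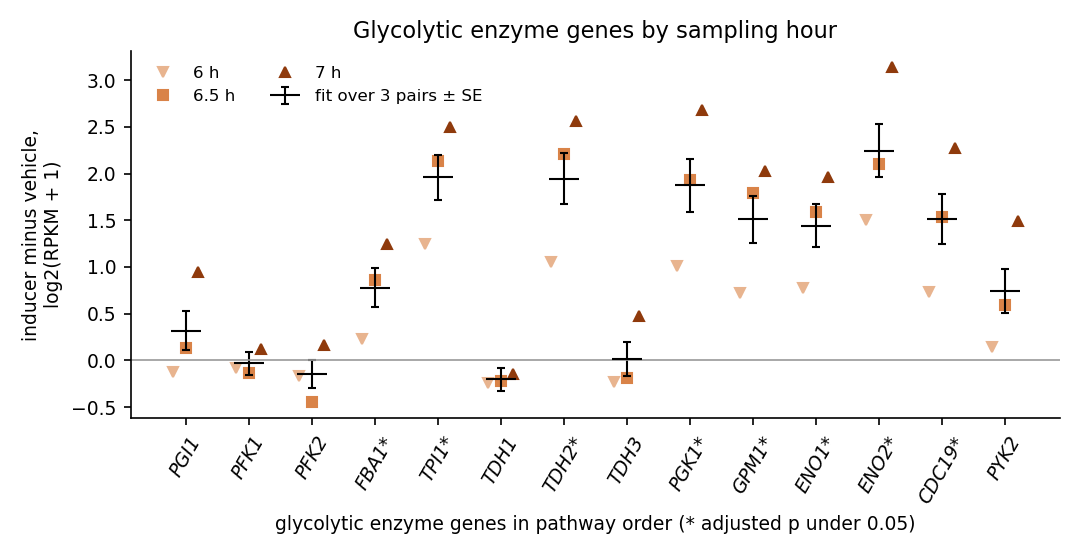
Inducer minus vehicle in log2(RPKM + 1) (vertical axis) for 14 glycolytic enzyme genes in pathway order (horizontal axis), with coloured markers for the difference at 6, 6.5 and 7 h and black bars for the fit over 3 pairs with its SE. The 8 genes marked with an asterisk, from FBA1 to CDC19, have fits of 0.78 to 2.25, and the fits for PGI1, PFK1, PFK2, TDH1 and TDH3 lie between -0.20 and 0.32.

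The TYE7 difference was set beside those of the glycolytic genes that rose, hour by hour. Its difference at 6 h was 83.8% of that at 7 h on the log2 scale, 2.11 against 2.51. For the 8 glycolytic genes this share ran from 18.5% for FBA1 to 49.9% for TPI1. HAC1 itself had 86.2% and KAR2 59.4%. These shares come from 1 pair of libraries at each hour, and no test of the difference between genes was made. TYE7 and the 8 glycolytic genes were picked by these same differences, so no order of events is read from the shares.

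**Figure D4:**
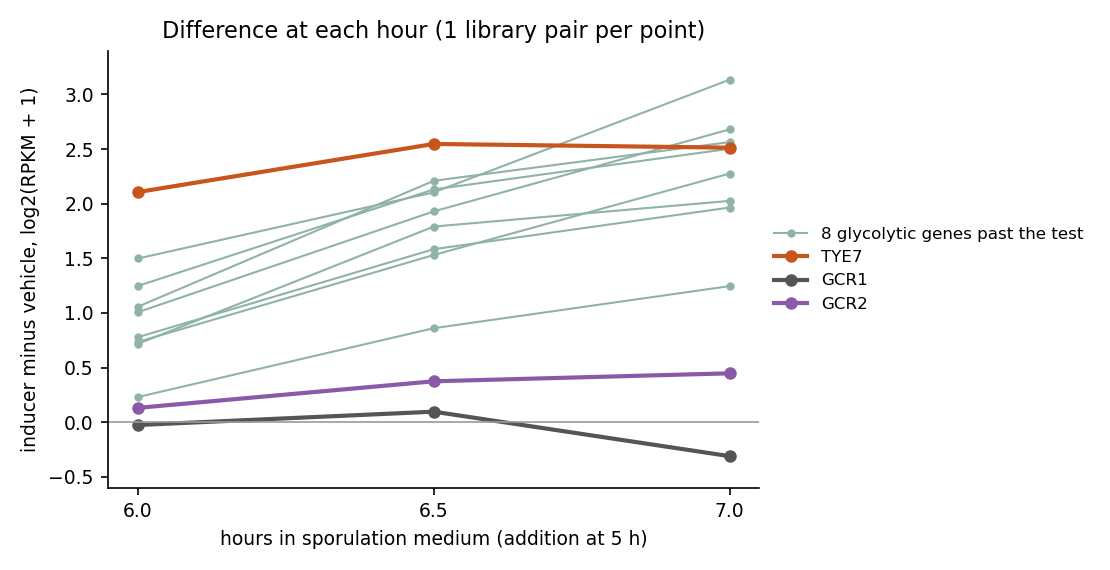
Inducer minus vehicle in log2(RPKM + 1) (vertical axis) at 6, 6.5 and 7 h (horizontal axis) for TYE7, GCR1, GCR2 and the 8 glycolytic genes past the test, 1 library pair per point. TYE7 is at 2.11, 2.55 and 2.51, GCR2 climbs to 0.45, GCR1 ends at -0.31, and each of the 8 thin lines has its highest point at 7 h.

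Lists of other steps around glycolysis were read against the 10.0% of all tested ORFs that rose and the 8.35% that fell. In the branch from pyruvate to ethanol none of 7 genes rose and 1 fell, PDC6, a minor pyruvate decarboxylase, by 0.54 ± 0.12 (SE, 3 pairs; adjusted p = 0.0259 by limma), a call lost without the 6.5 h pair, without the 7 h pair and with the hours left out of the fit. The main genes of that branch, PDC1 and ADH1, were at 0.27 ± 0.18 and 0.18 ± 0.19. Of 3 genes for the enzymes that make and break the activator of phosphofructokinase none passed. PFK27, a kinase of that group, was at 0.82 ± 0.27 (adjusted p = 0.0748), and FBP26, the phosphatase, at -0.40 ± 0.16. Both genes of the gluconeogenic bypass fell, FBP1, for fructose bisphosphatase, by 0.57 ± 0.13 (adjusted p = 0.0233) and PCK1, for phosphoenolpyruvate carboxykinase, by 0.66 ± 0.15 (adjusted p = 0.0257). Both of these calls were lost without the 6.5 h pair, without the 7 h pair and with the hours left out of the fit (adjusted p between 0.0779 and 0.514), and that of FBP1 also with hours as a linear term (0.167). PCK1 was abundant in both arms, at 3349 to 6063 RPKM with inducer and 5557 to 8431 RPKM with vehicle.

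Of 15 genes of hexose uptake and phosphorylation, 14 had a mean of at least 5 RPKM (HXT1 did not), and 1 rose and 1 fell. HXT2, a hexose transporter, rose by 1.54 ± 0.22 (adjusted p = 0.00613 by limma), with 1164, 1604 and 1465 RPKM with inducer at 6, 6.5 and 7 h and 607, 551 and 332 RPKM with vehicle, and its treatments did not overlap. Without the 7 h pair it did not pass (adjusted p = 0.0564). HXK1, a hexokinase, fell by 0.58 ± 0.16 (adjusted p = 0.0463). That call was lost in 7 of 11 alternatives, among them both other scalings, no filter on low values and each pair left out (adjusted p between 0.0534 and 0.336). HXK2, the hexokinase that dominates on glucose, was at 0.47 ± 0.15 (adjusted p = 0.0673). HXT4 was at 0.96 ± 0.28 (adjusted p = 0.0505), and HXT6 and HXT7, which are near-identical, were at -0.65 ± 0.42 and -0.43 ± 0.24. Of 9 regulators of growth without glucose, 8 were tested and MIG2 was too low. ADR1, an activator of genes for ethanol and fatty acid use, rose by 0.78 ± 0.15 (adjusted p = 0.0148), and SIP4, an activator of gluconeogenic genes, fell by 0.71 ± 0.18 (adjusted p = 0.0340). Neither passed without the 6.5 h pair, without the 7 h pair or with the hours left out of the fit (adjusted p between 0.0928 and 0.259), and SIP4 did not with hours as a linear term (0.0605). Apart from both bypass genes, the calls in these lists, 0 to 1 in each direction per list, lay near the shares over all ORFs. CAT8, the main activator of gluconeogenic genes, was at -0.37 ± 0.16, HAP4, of respiratory genes, at -0.28 ± 0.14, and the repressor MIG1 at -0.47 ± 0.22.

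The genes whose profile over the 6 libraries was most like that of TYE7 were MPD1, RAV1, JEM1, MSP1 and RAD26. Likeness was the root mean square distance between log2(RPKM + 1) profiles after each gene's own mean was taken away, so both the shape and the size of a change count. MPD1, a disulfide isomerase of the ER, was nearest at a distance of 0.08, with 505, 684 and 695 RPKM with inducer at 6, 6.5 and 7 h and 120, 114 and 116 RPKM with vehicle. RAV1, which acts in assembly of the vacuolar proton pump, had a distance of 0.08 as well, at far lower levels of 70.9 to 107 RPKM with inducer and 15.5 to 18.5 RPKM with vehicle. JEM1, an ER J-protein that works with Kar2, had 0.12. MSP1, an ATPase of the outer mitochondrial membrane, and RAD26, of transcription-coupled DNA repair, had 0.15 each. None of the 14 glycolytic genes was among them. So few genes are named here, beside 6025 tested ORFs, that this absence says nothing about the glycolytic genes. The distance also counts the size of the difference between inducer and vehicle, by which TYE7 was chosen.

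**Figure D5:**
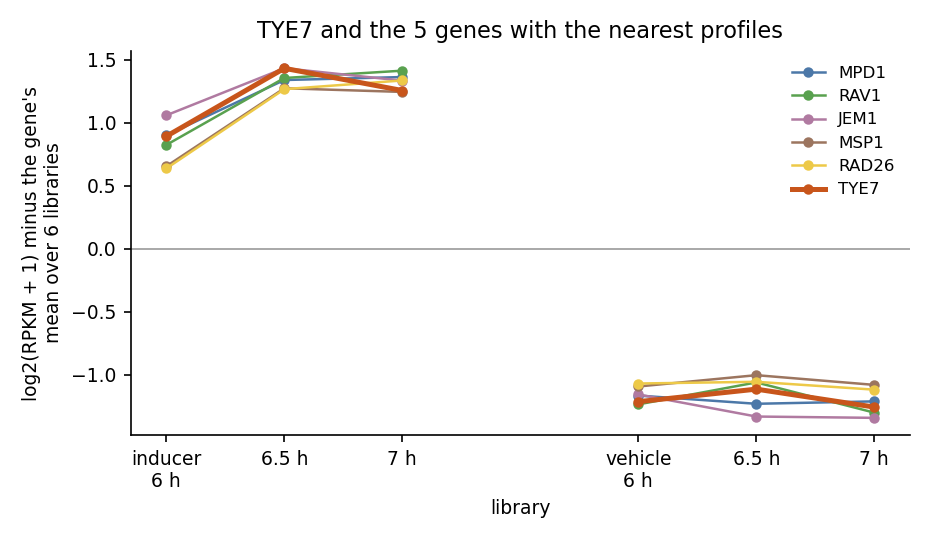
Profiles of TYE7 and its 5 nearest genes as log2(RPKM + 1) minus each gene's mean over the 6 libraries (vertical axis), by library (horizontal axis, inducer left and vehicle right). All 6 genes lie above their mean in the inducer libraries and below it in the vehicle libraries, and MPD1 and RAV1 lie at 0.08 from TYE7 by root mean square distance.

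Within a distance of 0.1 lay 2 genes for TYE7, against 221 for GCR1 and 157 for GCR2, so the genes nearest to GCR1 and GCR2 are a few of many. BNS1, SPC98, a subunit of the gamma-tubulin complex, and VPS3, of vacuolar protein sorting, lay at 0.04 from GCR1, each with its lowest value in the inducer library at 7 h. TFB1, a subunit of the general factor TFIIH, XRS2, of double-strand break repair, and DSE3 lay at 0.01, 0.04 and 0.04 from GCR2.

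The genes next to the 3 activators did not pass the test between inducer and vehicle. Of the 4 nearest annotated genes of TYE7 in the RefSeq S288C assembly R64, only REV1, for a translesion DNA polymerase, has a row in the deposited table. It was at -0.01 ± 0.17 (adjusted p = 0.981 by limma), with 24.3 to 28.9 RPKM with inducer and 22.9 to 31.0 RPKM with vehicle. Around GCR1, GPI2, upstream of it, was at -0.25 ± 0.14 and YTA6, downstream, at 0.01 ± 0.12, with YPL077C and UBP16 at 0.30 and -0.37. Around GCR2, NNR1 and WHI3 were at -0.03 ± 0.15 and -0.13 ± 0.15, and PSY2 and SLZ1 at -0.12 and -0.40.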

How the data were processed

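The authors deposited RPKM values for 6679 ORFs in 6 libraries, made from 50 bp single-end reads of directional poly(A) libraries per the labels' protocols. Bowtie2, TopHat and SAMtools were used per the submitters' processing notes. The sources used here give no versions, build, annotation or filters, and no strand setting for counting, so overlapping and antisense genes are uncertain. No header names the unit, which was inferred: in each library, values under 25 reads were whole multiples of a constant over the coding length less 60 bp in 72.7 to 77.1% of cases, within 0.02 of a read. With these reads, the values are 2.89 to 2.93 times plain RPKM, for a reason not known here. The recovered reads describe depth only, and no count test was run.

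Symbols and coding lengths came from RefSeq S288C assembly R64, which held 5994 of the ORF identifiers (685 were not in it). Because the build behind the table is not known, no coordinates, promoter sequences or motif shares are given, although a motif search had been planned. Columns were matched to samples by name.

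ORFs with a mean of at least 5 RPKM were kept (6025; 654 left out), transformed as log2(RPKM + 1) and fitted with limma-trend (limma 3.58.1, R 4.3.3), with Benjamini-Hochberg adjustment over all tested ORFs and a threshold of 0.05. The added 1 understates changes of low genes. Inducer and vehicle were compared with hour as a 3-level factor, which pairs the libraries by the hour in their labels, with 2 residual degrees of freedom. For change over time the fit held treatment and linear hours, with their product added for the interaction. After subtraction of treatment means, inducer and vehicle libraries of the same hour correlated across ORFs at 0.32, 0 and 0.11 for 6, 6.5 and 7 h. Libraries of different hours correlated at -0.23 to 0.22, so only the 6 h pair lay above that range. The fit was tested on simulated data with independent noise for each gene and library. That test does not cover shifts shared by a whole library or treatment differences that change with the hour. The design had provided for counts as well, which the table does not hold.

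The 3 genes and the 11 gene lists (72 genes) were chosen with earlier results of these data known. The text names the 3 genes, HAC1, KAR2, genes of the lists, the 2 nearest annotated genes on each side, and the nearest profiles, 5 for TYE7 and 3 each for GCR1 and GCR2. Alternatives were other pseudocounts, filters, scalings and codings of time, and each hour's pair left out.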

Additional observations from a re-analysis of the deposited data

How the results depend on the processing

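Over the 11 alternatives TYE7 ran from 2.31 to 2.53 and GCR2 from 0.25 to 0.41. In this balanced design the filters and the codings of time cannot change such a difference. Only the pseudocounts, the scalings and the pairs left out could move it. The contrast is the one that chose the genes, so these ranges are a description. GCR1 ran from -0.17 to 0.04, positive only without the 7 h pair. The glycolysis count of 8 became 3 with no replicate block, that is with the hour left out of the fit, and 1 to 9 with one pair left out. The number of ORFs higher and lower with inducer, 604 and 503, ran from 76 to 723 and from 9 to 535 with one pair left out. With no replicate block 484 were higher and 145 lower. Over time, 15 ORFs rose and 25 fell. These counts were 8 and 1 with no filter on low values and 34 and 7 with median-ratio scaling, which moved the median slope of all ORFs from -0.15 to 0.01 per hour. With HAC1 left out of equal totals 39 fell. With one pair left out, 0 to 6 rose and 0 to 1 fell. The TYE7 slope was reversed, at -0.32, without the 6 h pair (range -0.32 to 0.64). The cause of these moves was not tested. The interaction could not be fitted with a pair left out, as no residual degrees of freedom remain. Depth limits the precision most for vehicle at 6.5 h, the shallowest library.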

Other observations

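The glycolytic enzyme genes were mostly highest at 6.5 h in both arms. All 14 were highest at 6.5 h among the 3 vehicle libraries, and 11 of 14 among the 3 inducer libraries. The same share over all tested ORFs was not computed, so these counts do not set the glycolytic genes apart from other genes. Their summed level was 13558, 40931 and 34276 RPKM with inducer at 6, 6.5 and 7 h and 8960, 16072 and 9825 RPKM with vehicle. TYE7 in vehicle was 110 RPKM at 6.5 h beside 102 and 99.3 RPKM at 6 and 7 h. With 1 library per hour, the hour and the library cannot be told apart, and the vehicle library at 6.5 h is also the shallowest while the inducer library at 6.5 h is the deepest.

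Among the genes with profiles near that of TYE7, RAV1 and RAD26 are separated by only 1 annotated gene, PET191, a factor of cytochrome c oxidase assembly, in the RefSeq S288C assembly R64. PET191 was looked up after the values of its neighbours had been seen. It stood at 250, 325 and 286 RPKM with inducer at 6, 6.5 and 7 h, against 334, 424 and 387 RPKM with vehicle, a difference of -0.41 ± 0.12 (SE, 3 pairs; adjusted p = 0.0585 by limma). RAD26 stood at 181, 281 and 294 RPKM with inducer and 54.7, 55.3 and 52.9 RPKM with vehicle. The gene between them thus had a difference of the opposite sign.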
